A study of Mus musculus with 4 samples.

Results

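Cells of the E12.5 mouse cortex that carried Eomes transcripts but little Neurod6 or Nes were described from 1 single-cell RNA-seq library. Eomes encodes the T-box factor Tbr2, which marks the intermediate progenitors of the cortex. Members were barcodes of the cortex (CTX) library with more than 1500 and fewer than 4500 genes, under 5% mitochondrial and under 1% Hbb- UMIs, 2 or more Eomes UMIs, at most 1 Neurod6 UMI, and a Nes level of at most 1.5 as ln(1 + UMIs per 10000). The rule was met by 211 of the 3634 kept cortex cells, or 5.81% (95% exact binomial interval 5.07 to 6.62), out of 16544 kept cells in the 4 libraries. They are called Eomes cells below. The values of Eomes, Neurod6 and Nes chose them, so those 3 genes are given as a description only.

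All 4 libraries were made from wt embryos of the C57BL/6 strain, without treatment, from the cortex and the 3 ganglionic eminences (MGE, CGE and LGE), with tissue of several embryos pooled per dissection. The labels describe a sort of live cells before loading, while the study's methods give a sort for other samples only, and its part in the shares of cells below was not tested. Each region had 1 library, so no comparison here has replicates and no test was made: intervals are 95% exact intervals that cover the counting of UMIs or cells only, and UMIs of 1 cell are not independent. The cortex library held 6953 barcodes, and its Eomes cells had a median of 8148 UMIs against 8257 in all other kept cortex cells. Kept cortex barcodes recurred in another library's kept cells 20 times, and 1 of these was an Eomes cell. Of the Eomes cells, 25 (11.8%) were among the 202 kept cortex cells with the highest doublet scores, which were 5.56% of all kept cortex cells. Without those cells, 159 genes were at least 2-fold higher than in the other cortex cells and 689 at least 2-fold lower.

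As background, radial glia of the ventricular zone divide to renew themselves and to give rise to intermediate progenitors, which settle in the subventricular zone, divide a few times and produce glutamatergic neurons. Proneural basic helix-loop-helix factors such as Neurog2 and Neurog1 drive this step, and induce Notch ligands that activate Notch receptors on neighbouring cells, where Hes1 and Hes5 hold cells in the progenitor state. Eomes, proneural factors, Notch ligands and antiproliferative genes are expressed for a time on the way from radial glia to neurons.

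Eomes cells were compared with all 3423 other cortex cells and with 2 classes drawn by the same 3 genes: 876 high-Nes cells (Nes above 1.5, at most 1 Neurod6 UMI), which include radial glia, and 1388 Neurod6 cells (2 or more Neurod6 UMIs, Nes at most 1.5). A further 1159 cells fell in none of these. The Neurod6 cells are named by the rule and are not all postmitotic: 708 of them also held 2 or more Eomes UMIs, and 18.1% held a Mki67 UMI after thinning to 3000 UMIs, so levels in this class are not those of neurons alone. Levels are CPM, the summed UMIs of a gene in a class scaled to a common total for every class, and a gene was counted as called when its CPM ratio was at least 2-fold in either direction, among genes at 10 CPM or more in either sum. The cells that gave the ratios are the cells that were selected, so every ratio is a description of the selected cells.

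Of 8967 genes, 126 were at least 2-fold higher in Eomes cells than in all other cortex cells (1.41% of genes tested) and 637 at least 2-fold lower (7.1%). The genes furthest above the rest were proneural factors, a Notch ligand and antiproliferative genes. Neurog1 stood at 278 CPM against 25.7 (10.8-fold, 9.64 to 12.2), Gadd45g at 1390 against 189 (7.36-fold, 7.01 to 7.73), Dll1 at 269 against 41.7 (6.46-fold, 5.79 to 7.19) and Neurog2 at 2280 against 380 (6.01-fold, 5.79 to 6.23). The median log2 ratio of all tested genes was -0.05.

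Sequence upstream of Gadd45g, Dll1 and Hes6 is shown because all stood at least 2-fold above both neighbouring classes and because, as seen once the windows were searched, each holds an E-box, the 6-letter element that helix-loop-helix dimers bind. The runs are the 250 bases before the start of the RefSeq model (GRCm38.p6, read 5′ to 3′ on the gene's strand): Gadd45g at chr13:51846425-51846674 on the plus strand, Dll1 at chr17:15376933-15377182 and Hes6 at chr1:91414039-91414288, both on the minus strand. Capitals mark CAGCTG, which is its own reverse complement.
Gadd45g: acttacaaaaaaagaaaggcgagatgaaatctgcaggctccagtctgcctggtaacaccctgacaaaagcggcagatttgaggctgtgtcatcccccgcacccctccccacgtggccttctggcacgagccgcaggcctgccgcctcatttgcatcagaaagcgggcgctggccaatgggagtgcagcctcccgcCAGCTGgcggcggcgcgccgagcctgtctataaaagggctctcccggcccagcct
Dll1: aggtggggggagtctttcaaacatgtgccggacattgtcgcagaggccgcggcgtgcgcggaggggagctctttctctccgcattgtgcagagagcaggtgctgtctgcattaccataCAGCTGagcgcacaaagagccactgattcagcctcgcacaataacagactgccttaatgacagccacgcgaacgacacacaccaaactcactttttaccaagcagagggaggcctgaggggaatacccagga
Hes6: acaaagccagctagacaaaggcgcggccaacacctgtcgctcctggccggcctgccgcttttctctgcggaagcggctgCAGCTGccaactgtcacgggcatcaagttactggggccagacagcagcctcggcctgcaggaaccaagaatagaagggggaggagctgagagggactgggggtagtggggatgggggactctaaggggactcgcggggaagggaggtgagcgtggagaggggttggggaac

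CAGCTG lay in the window of 8 of the 45 genes with a RefSeq window among the 56 that stood at least 2-fold above both neighbouring classes (17.8%), against 878 of 6779 genes tested (13%) and 3979 of all 27025 genes (14.7%). A second E-box, CAGATG, searched on both strands (also read as CATCTG), lay in 7 of the 45 (15.6%), against 734 of 6779 tested genes (10.8%) and 4409 of all genes (16.3%). The windows printed for Gadd45g, Dll1 and Hes6 held no CAGATG, the other RefSeq window of Dll1 held neither element, and neither lay in the windows of Eomes, Neurog1, Neurog2, Btg2 or E2f1. These are matches of letters and show no binding.

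Neurog2 and Neurog1, the proneural factors that commit cortical progenitors to neurogenesis, were higher in Eomes cells than in each other class, and also belong to the markers that name these cells. Neurog2 (chr3:127633135-127635631, plus strand) was at 2280 CPM in Eomes cells, 307 in high-Nes cells, 463 in Neurod6 cells and 332 in the remaining cells. Per cell, its UMIs ran from 0 through a median of 19 to 59 in Eomes cells, while the median was 1 in each of the other 3 classes, although single cells there reached 42 to 56. After each cell was thinned to 3000 UMIs, 199 of 209 Eomes cells held a Neurog2 UMI (95.2%, 91.4 to 97.7), against 37.8% of high-Nes cells and 42.3% of Neurod6 cells. Unthinned, the shares were 96.7%, 58.9% and 58.5%. In cortex cells with 3 or more GABAergic markers, which should lack the gene, 6.9% (4 of 58) held a Neurog2 UMI after thinning. Those cells had a median of 5565 UMIs before thinning.

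Neurog1 (chr13:56250478-56252163, minus strand) was scarcer. It was at 278 CPM in Eomes cells, 15.4 in high-Nes cells and 36.1 in Neurod6 cells, with a median of 2 and a maximum of 10 UMIs per Eomes cell. Its thinned share was 52.6% of Eomes cells (45.6 to 59.6, 73.5% unthinned), 3.66% of high-Nes cells and 7.36% of Neurod6 cells, and 0 of the 58 GABAergic cells, which allows up to 5.17%. Of the 110 thinned Eomes cells with Neurog1, 109 also held Neurog2, and 90 cells held Neurog2 alone.

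Among the 18 genes of the list of proneural factors and their partners, 16 were tested against all other cortex cells, of which 5 were at least 2-fold higher and 3 at least 2-fold lower (1.41% and 7.1% over all genes). The higher ones included both Neurog genes, which are also markers that name these cells. They further included Hes6, an inhibitor of Hes1 (4.65-fold, 4.42 to 4.9), and Insm1, a zinc finger factor needed for basal progenitors (4.5-fold, 4.18 to 4.83). Hes6 was at 1110 CPM, with 134 in high-Nes cells and 341 in Neurod6 cells. The lower ones were Bhlhe22 (0.138, 0.091 to 0.202) and Neurod1 (0.328, 0.242 to 0.435), factors of postmitotic neurons and late progenitors, and Id3, an inhibitor of helix-loop-helix dimers, at 2 UMIs (0.0963, 0.0116 to 0.35).

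Later members of the cascade were present below their levels in Neurod6 cells. Neurod2 was at 243 CPM in Eomes cells, 17.2 in high-Nes cells and 675 in Neurod6 cells, and Nhlh1 at 42.6, 3.34 and 85.9. Neurod1 was at 28.6 CPM in Eomes cells, 2.8 in high-Nes cells and 198 in Neurod6 cells. The general partners of the proneural factors, which many cell types express, differed little: Tcf3 had a ratio of 1.26 to all other cortex cells, Tcf4 of 0.88 and Tcf12 of 1.05.

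**Figure D1:**
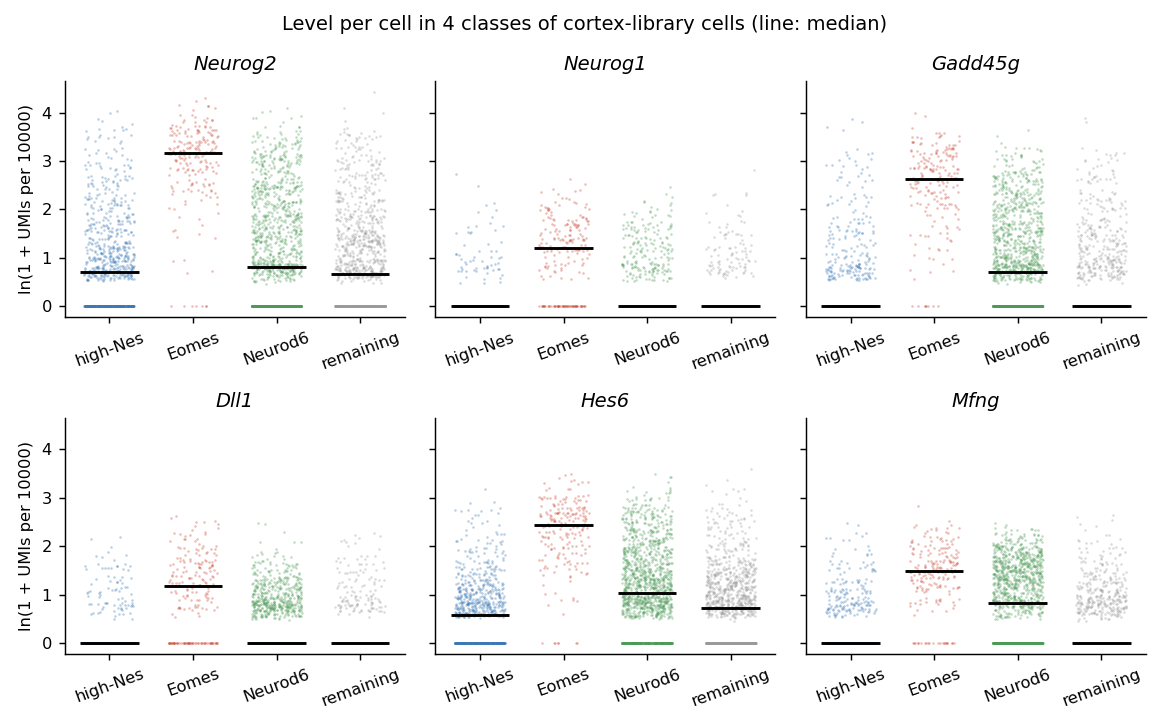
Level per cell of 6 genes in the 4 classes of cortex cells, as ln(1 + UMIs per 10000), with 1 point per cell, spread sideways at random, and the class median as a black line. Neurog2, Gadd45g and Hes6 have their highest class median in Eomes cells, and Neurog1 and Dll1 have medians above 0 in Eomes cells only, among the 4 classes.

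Dll1, Mfng and Numbl, which act on the sending side or modify Notch, stood high in Eomes cells. The Notch targets Hes1 and Hes5 lay between high-Nes cells and Neurod6 cells, and Nrarp was near its level in Neurod6 cells. Of 8 tested genes of the 12 listed ligands and modulators, 3 were at least 2-fold higher than in all other cortex cells (1.41% of all genes) and 1 was at least 2-fold lower (7.1%). Mfng, 1 of the 3 higher genes, is also among the markers that name these cells. Dll1, a Notch ligand (chr17:15367354-15376872, minus strand), was at 269 CPM in Eomes cells, 21.5 in high-Nes cells and 65.3 in Neurod6 cells, and its annotated span overlaps the antisense gene A930024N18Rik. Thinned, 95 of 209 Eomes cells held a Dll1 UMI (45.5%, 38.6 to 52.5, 71.6% unthinned), against 4.84% of high-Nes cells, 16% of Neurod6 cells and 1 of 58 GABAergic cells (1.72%).

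Mfng, a glycosyltransferase that modifies Notch, was at 368 CPM in Eomes cells, 43.1 in high-Nes cells and 186 in Neurod6 cells. Numbl, an adaptor that counters Notch, was at 114, 13.9 and 85.8 CPM. Lfng, the related enzyme, ran the other way, with 15.2 CPM in Eomes cells, 61 in high-Nes cells and 2.07 in Neurod6 cells. Dll3, a ligand that acts within the cell, was at 52.5 CPM, above the 2 CPM of high-Nes cells and below the 91.8 of Neurod6 cells.

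On the receiving side, Notch1 was at 153 CPM in Eomes cells and 151 in high-Nes cells, a ratio of 1.02, against 30.7 in Neurod6 cells. The other receptors were lower than in high-Nes cells. Notch2 was at 20.4 CPM in Eomes cells, 57.1 in high-Nes cells and 6.61 in Neurod6 cells, and Notch3 at 15.8, 41.9 and 2.56. The targets Hes1, Hes5 and Nrarp were also lower than in high-Nes cells. Hes1 was at 16.9 CPM against 145 in high-Nes cells, Hes5 at 177 against 486 and Nrarp at 28 against 113. In Neurod6 cells Nrarp was at 24 CPM, and the ratio of Eomes cells to them was 1.16 (0.84 to 1.59). Thinned, 4.78% of Eomes cells held a Hes1 UMI and 31.3% of high-Nes cells did (10.9% and 58.8% unthinned), beside 1.17% of Neurod6 cells and 3 of 58 GABAergic cells (5.17%). Hes5 was held by 26.8% of thinned Eomes cells and 65.8% of high-Nes cells (46% and 85.2% unthinned), against 8.62% of GABAergic cells. Over the list of receptors and targets, 0 of 8 tested genes were at least 2-fold higher than in high-Nes cells (3.43% of all genes) and 5 were at least 2-fold lower (6.07%). Against Neurod6 cells, 5 of 8 were at least 2-fold higher (8.73%) and 0 at least 2-fold lower (11.6%).

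Genes that slow or end the cell cycle were also among those that stood highest, though not all of them. Of 10 tested genes on that list, 4 were at least 2-fold higher in Eomes cells than in all other cortex cells (1.41% of all genes) and 0 were at least 2-fold lower (7.1%). Gadd45g, a stress-response family member linked to cell cycle arrest (chr13:51846678-51848468, plus strand), was at 1390 CPM, with 110 in high-Nes cells and 286 in Neurod6 cells, and its UMIs ran from 0 through a median of 10 to 40 per Eomes cell. It was held by 90.9% of thinned Eomes cells (96.2% unthinned), 15.5% of high-Nes cells, 38% of Neurod6 cells and 0 of 58 GABAergic cells. Btg2, an antiproliferative gene known from neurogenic divisions, was at 434, 96.9 and 131 CPM in Eomes cells, high-Nes cells and Neurod6 cells, the order used below where 3 values are given. Rprm, a p53 target linked to G2 arrest, was at 841, 136 and 762 CPM, with its level in Neurod6 cells close to that in Eomes cells. Gadd45a was also higher (2.72-fold, 1.89 to 3.83), at 22.8 CPM. The cyclin-dependent kinase inhibitor Cdkn1c was at 230 CPM, between 24.8 and 707, and Cdkn1b was at 86.4 CPM with a ratio of 0.902 to the rest (0.76 to 1.06).

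**Figure D2:**
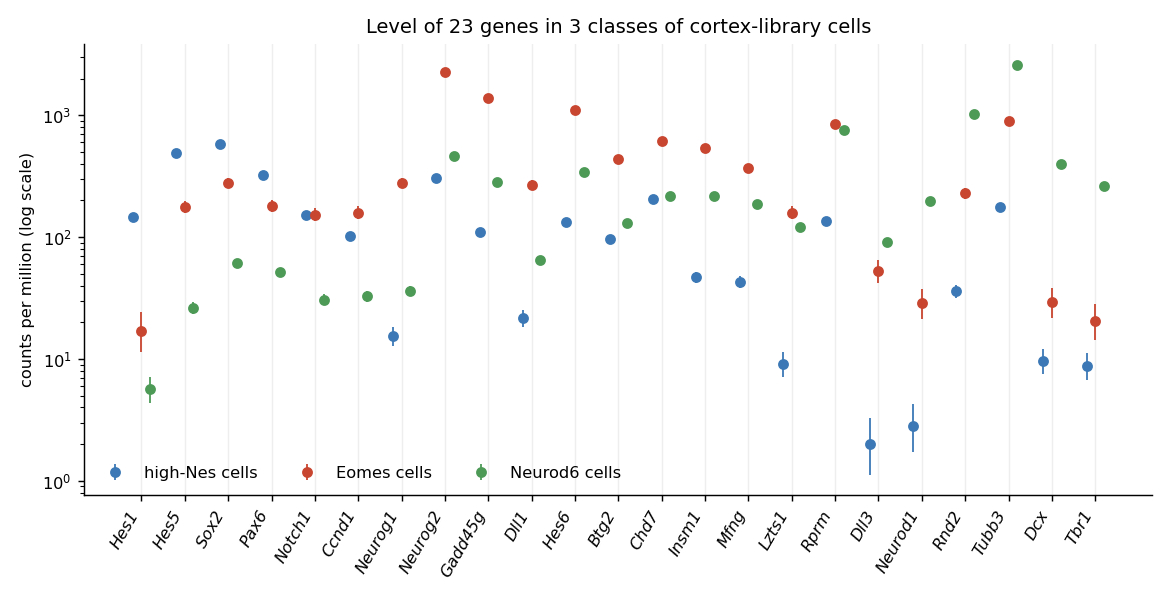
Levels of 23 genes in high-Nes cells, Eomes cells and Neurod6 cells, in CPM on a log axis, with 95% exact Poisson intervals that cover counting error only. Hes1, Hes5, Sox2 and Pax6 at the left step down from high-Nes cells, Neurog1 to Rprm are highest in Eomes cells, and Dll3 to Tbr1 at the right have their highest level in Neurod6 cells.

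S phase genes and genes of G2 and mitosis separated in the cells within the limits. Mki67 was higher in cells with 2 or more Eomes UMIs that the Neurod6 or the Nes limit alone left out, as given below. All 24 S phase genes were above all other cortex cells, by little for some, with a median log2 ratio of 0.56 (all genes -0.05), and 1 of them, Cdc6, reached 2-fold (2.01, 1.56 to 2.55). Against high-Nes cells their median log2 ratio was 0.03, and 13 were higher and 11 lower. Of the 24 genes of G2 and mitosis, 24 were lower than in high-Nes cells, 11 of them at least 2-fold, with a median log2 ratio of -0.99 (all genes -0.07). The lists share no gene.

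Rrm2, which makes DNA precursors, was at 523 CPM in Eomes cells and 360 in high-Nes cells, and the replication helicase subunit Mcm2 at 180 and 138. In contrast, Cdc20, which triggers anaphase, was at 64.8 CPM in Eomes cells, 267 in high-Nes cells and 131 in Neurod6 cells, and Ube2c, which works with it, at 267, 720 and 435. Top2a and Mki67 were lower by less, at 523 against 768 and 196 against 404 CPM in high-Nes cells. In Neurod6 cells Top2a was at 332 and Mki67 at 145 CPM. Against Neurod6 cells, 14 of the 24 G2 and mitosis genes were higher and 10 lower, with a median log2 ratio of 0.09 (all genes 0.03). Among the cyclins, Ccnd1, which acts in G1, was at 159 CPM against 103 in high-Nes cells, Ccne2 at 27.4 against 19.6, Ccna2 at 168 against 312 and the mitotic cyclin Ccnb1 at 105 against 303. E2f1, a factor for entry into S phase, was at 184 CPM in Eomes cells, 54.6 in high-Nes cells and 61.3 in Neurod6 cells.

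Per cell thinned to 3000 UMIs, the S phase genes summed to a mean of 11.5 UMIs in Eomes cells and 11.3 in high-Nes cells, with medians of 10 in both. The G2 and mitosis genes summed to a mean of 8.38 in Eomes cells (median 2) and 17.2 in high-Nes cells (median 13). S phase genes made up 57.9% of the UMIs of both lists in Eomes cells (56.4 to 59.4) and 39.7% in high-Nes cells (39 to 40.3). The share was 47.3% in the remaining cells (46.7 to 47.9) and 29.2% in Neurod6 cells. Of 209 Eomes cells, 61 (29.2%) held 10 or more UMIs of the G2 and mitosis list and 108 (51.7%) 10 or more of the S phase list, against 56.6% and 50.9% of high-Nes cells, 20% and 8.38% of Neurod6 cells and 40.2% and 52.9% of the remaining cells. The mean of the G2 and mitosis genes was 7.7 UMIs in Neurod6 cells (median 1) and 12.7 in the remaining cells (median 7). A Mki67 UMI was held by 63 of 209 thinned Eomes cells (30.1%, 24 to 36.9, 44.1% unthinned), 51.9% of high-Nes cells and 18.1% of Neurod6 cells, and by 6.9% of GABAergic cells.

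**Figure D3:**
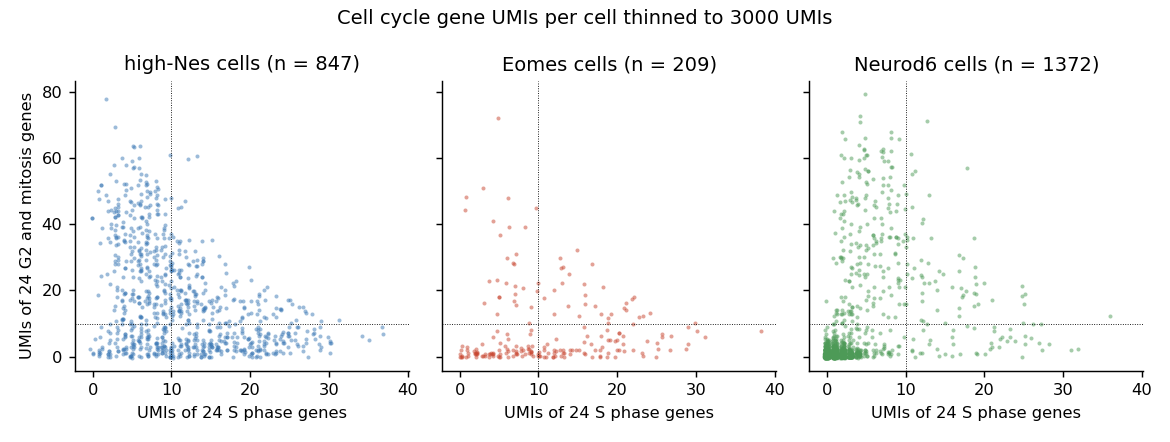
UMIs of the 24 S phase genes (horizontal) and the 24 G2 and mitosis genes (vertical) in each cell thinned to 3000 UMIs, for high-Nes cells, Eomes cells and Neurod6 cells, with dotted lines at 10 UMIs and a small random shift per point. Of Eomes cells 51.7% and of high-Nes cells 50.9% reach the line on the S phase axis, while 29.2% of them and 56.6% of high-Nes cells reach the upper line.

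Most radial glial genes were below their level in high-Nes cells yet above that in Neurod6 cells. Of the 21 listed, 18 were lower than in high-Nes cells, 14 of them at least 2-fold (6.07% of all genes), and 0 were at least 2-fold higher (3.43%), while against Neurod6 cells 16 of 19 tested were at least 2-fold higher (8.73%). Sox2, a stem cell factor, was at 277 CPM in Eomes cells, 586 in high-Nes cells and 61.4 in Neurod6 cells. Pax6, which acts upstream of Neurog2 in the cortex, was at 179, 325 and 51.6 CPM. Vim, an intermediate filament of radial glia, was not lower, at 1390 CPM against 1310 in high-Nes cells (ratio 1.06) and 539 in Neurod6 cells. The adhesion receptor Ptprz1 was lower than in both, at 22.2 CPM against 87.7 and 56.7.

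Most neuronal genes were below their level in Neurod6 cells. Of 17 tested genes for the early neuronal cytoskeleton and RNA-binding proteins, 13 were at least 2-fold lower than in Neurod6 cells (11.6% of all genes) and 0 at least 2-fold higher (8.73%). Tubb3, a neuronal tubulin, was at 897 CPM, between 176 in high-Nes cells and 2580 in Neurod6 cells. Dcx, a microtubule protein of migrating neurons, was at 29.2, 9.61 and 398 CPM. The RNA-binding Elavl4 came closer, at 266 CPM against 319 in Neurod6 cells and 47.9 in high-Nes cells. Of 19 tested cortical neuron factors, 13 were at least 2-fold lower than in Neurod6 cells (11.6% of all genes), among them Tbr1 (20.4 against 264 CPM) and Bcl11b (43.2 against 829). Fezf2, a factor of deep-layer projection neurons, was at 242 CPM with 309 in Neurod6 cells and 137 in high-Nes cells.

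Of 29 tested genes for multipolar migration, adhesion and guidance, 19 were at least 2-fold lower than in Neurod6 cells (11.6% of all genes) and 1 at least 2-fold higher (8.73%). Rnd2, a protein needed for migration and a Neurog2 target, was at 229 CPM, 35.9 in high-Nes cells and 1020 in Neurod6 cells. Lrp8, a reelin receptor, was at 211, 34.7 and 130 CPM, and the only gene of this list at least 2-fold above all other cortex cells (2.72-fold, 2.43 to 3.04). Slit1 was at 14 CPM in Eomes cells and 0.267 in high-Nes cells, with 24.5 in Neurod6 cells. Among genes of cortical field patterning, Emx1 was 1.6-fold (1.46 to 1.75) and Tfap2c, a factor of basal progenitor output, 2.07-fold (1.78 to 2.4) the level in all other cortex cells, and Nr2f1 was 0.574 of it (0.521 to 0.632).

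Genes listed as typical of glutamatergic intermediate progenitors stood differently against each class. Against high-Nes cells 19 of 22 tested were at least 2-fold higher (3.43% of all genes) with a median log2 ratio of 2.41. Against Neurod6 cells 4 of 24 were at least 2-fold higher (8.73%) and 9 at least 2-fold lower (11.6%). Chd7, a chromatin remodeller, was at 613 CPM in Eomes cells, 205 in high-Nes cells and 218 in Neurod6 cells. Lzts1, linked to the detachment of cells from the ventricular surface, was at 159, 9.08 and 121 CPM, and Sstr2, a somatostatin receptor, at 130, 5.74 and 229. Sox4, a factor of neuronal maturation, was at 4130 CPM in Eomes cells, 1020 in high-Nes cells and 3660 in Neurod6 cells, and an antisense gene, Gm26735, overlaps it. Of 9 tested ribosomal stalk and growth genes, 8 lay within 2-fold of all other cortex cells, and Mycn was lower (0.455, 0.352 to 0.579).

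Taking both neighbouring classes at once, 9415 genes reached 10 CPM in at least 1 of the 3 classes. Eomes cells were at least 2-fold above both for 56 genes and at least 2-fold below both for 177, and lay between them for 4531. Some of the 56 rest on few cells. Cacna2d2 had 22 UMIs in the 3 Eomes cells with Cajal-Retzius markers, described below, and 4 in the other 208. Nr2f2 had 22 UMIs in 4 Eomes cells. The count of 56 was not repeated without such cells. Of the 1123 genes at least 2-fold higher in Neurod6 cells than in high-Nes cells, Eomes cells lay between for 749. Among the 744 of these with UMIs in every class, 512 were nearer to high-Nes cells on the log scale. Of 1351 genes at least 2-fold higher in high-Nes cells, Eomes cells lay between for 1086, of which 722 were nearer to high-Nes cells.

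Genes outside the lists were also among the 56. D8Ertd82e stood at 74.7 CPM in Eomes cells, 23.5 in high-Nes cells and 13.5 in Neurod6 cells. Zc3h12c, a zinc finger gene of the regnase family, was at 51.3, 13.3 and 12.2 CPM, and Magi1, a scaffold of cell junctions, at 121, 44.2 and 35.9. Both Btbd17 (184, 26.3 and 85 CPM) and Spsb4 (158, 36.4 and 61.2) were nearer to their level in Neurod6 cells. Genes with the lowest ratios outside the lists included genes high in Neurod6 cells, such as Pcp4 (7.59 CPM against 247 in Neurod6 cells), Gpm6a (10.5 against 258) and Islr2 (16.9 against 355).

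**Figure D4:**
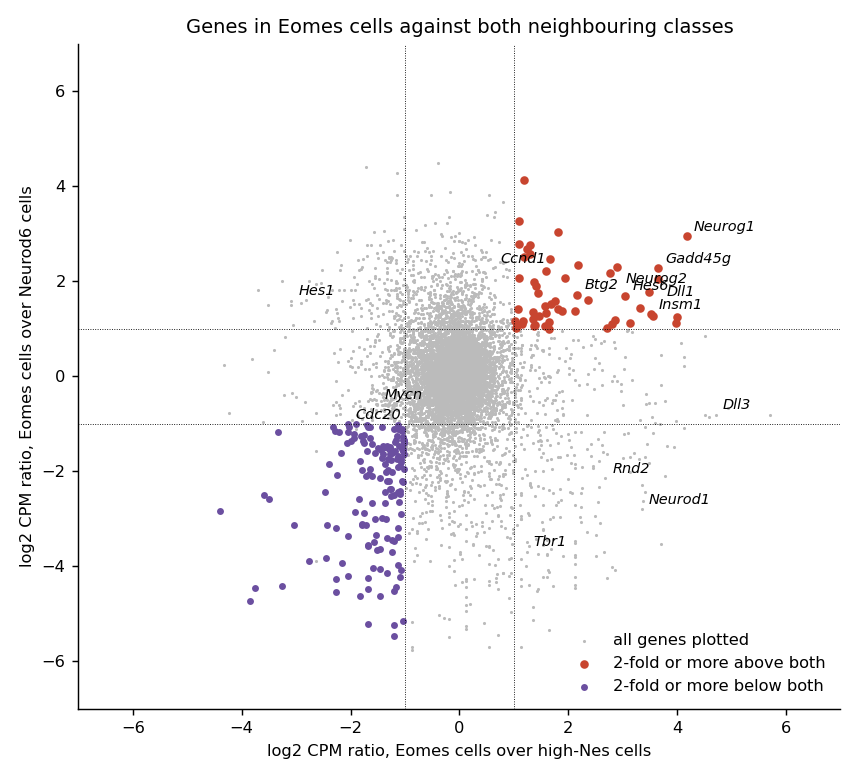
Log2 CPM ratio of each gene in Eomes cells to high-Nes cells (horizontal) and to Neurod6 cells (vertical), with dotted lines at 2-fold, leaving out genes with no UMI in a class. The 56 genes at least 2-fold above both are red and those at least 2-fold below both purple, and Neurog1 lies furthest to the upper right of the named genes.

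Eomes was also found outside the selected cells. The gene (chr9:118478212-118486132, plus strand, overlapped by the antisense gene Gm33460) was at 775 CPM in Eomes cells, 433 in Neurod6 cells and 34.2 in high-Nes cells. Of 997 kept cortex cells with 2 or more Eomes UMIs, 708 were left out by the Neurod6 limit alone, 42 by the Nes limit alone and 36 by both. Eomes UMIs per Eomes cell ran from 2 through a median of 6 to 21, and 47 cells held exactly 2. Neurod6 was at 1 UMI in 59 Eomes cells and at 0 in 152.

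The cells left out show what lies next to the limits. With 2 or more Neurod6 UMIs, the 708 cells had more Eomes (851 CPM) but less Neurog2 (868 CPM against 2280), Gadd45g (516 against 1390) and Dll1 (104 against 269), and more Neurod1 (292 against 28.6), Dll3 (142 against 52.5) and Rnd2 (856 against 229). The 60 cells with exactly 2 Neurod6 UMIs were at 1700 CPM for Neurog2, 1070 for Gadd45g and 84.2 for Neurod1. The 42 cells beyond the Nes limit were at 1660 CPM for Neurog2, 1020 for Gadd45g and 378 for Hes5, which was at 177 in Eomes cells. Mki67 was at 402 CPM (337 to 475) in these 42 cells and 265 (252 to 279) in the 708, against 196 in Eomes cells. Mcm3 was at 290, 75.8 and 286 CPM in the same order. The Mki67 level of Eomes cells thus depends on both limits, and that of Mcm3 on the Neurod6 limit.

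By Eomes count, within the Neurod6 and Nes limits, Neurog2 stood at 277 CPM in the 1007 cells without Eomes UMIs, 739 in the 102 cells with 1, 2010 in the 47 with 2, 2280 in the 54 with 3 to 5 and 2390 in the 110 with 6 or more. Gadd45g was at 91.9, 333, 1000, 1460 and 1500 CPM in the same order. Over the same 5 groups Hes5 stood at 445, 379, 338, 196 and 108 CPM, and Neurod2 at 13.6, 43, 129, 215 and 300. Mcm3, a replication gene, was at 284, 296, 264, 297 and 289 CPM. The median depth of these groups lay between 7448 and 8486.5 UMIs, and was lowest in the cells with exactly 2 Eomes UMIs.

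**Figure D5:**
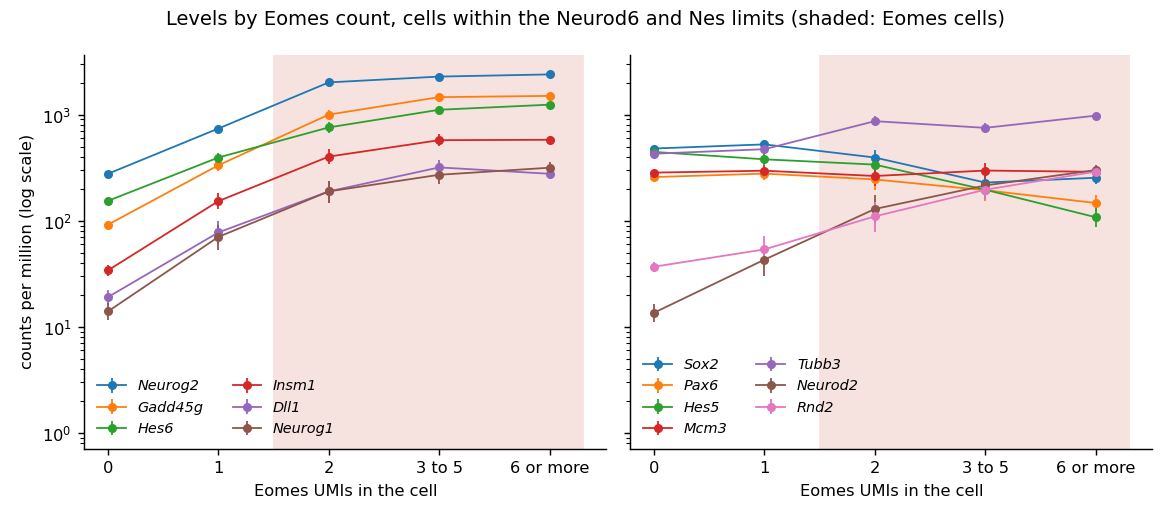
CPM on a log axis of 13 genes in cells grouped by their Eomes UMIs, all within the Neurod6 and Nes limits, with 95% exact Poisson intervals for counting error and Eomes cells shaded. Proneural and Notch-related genes step up to the group with 2 Eomes UMIs and change less beyond it, while Hes5 is lower and Rnd2 and Neurod2 are higher with more Eomes UMIs. The group with 2 Eomes UMIs includes the 3 Eomes cells with Cajal-Retzius markers, which held 122 of its 308 Tubb3 UMIs.

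Most markers of other cell types were at or near 0. Of the 12 GABAergic genes, 8 were at 0 in Eomes cells, among them Dlx1, Gad1 and Gad2, and the list summed to 104 CPM, against 205 in high-Nes cells, 21.6 in Neurod6 cells and 164 in all other cortex cells. Only 1 of the 12 reached 10 CPM in Eomes, high-Nes or Neurod6 cells, so the sum in Eomes cells rests mainly on that gene. The 8 endothelial genes summed to 12.8 CPM (5 at 0), the 9 pericyte and mesenchyme genes to 4.67 CPM (5 at 0), the 8 microglia and macrophage genes to 8.75 CPM (3 at 0), the 6 oligodendrocyte and glial lineage genes to 1.75 CPM (4 at 0) and the 8 cortical hem and choroid plexus genes to 9.92 CPM (6 at 0). Red blood cell genes were at 85.8 CPM against 101 in the other cortex cells. Of the Eomes cells, 1 held 3 or more of 5 microglia markers.

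The 9 genes of the Cajal-Retzius list summed to 123 CPM against 124 in all other cortex cells. Of 211 Eomes cells, 3 held 3 or more of 6 Cajal-Retzius markers, and 41 kept cortex cells did in all. Those 3 cells carried 74 of the 77 Reln UMIs of the Eomes cells, all 28 of Calb2, all 11 of Lhx1, all 7 of Lhx5 and all 6 of Trp73, together with 23 of 35 Tbr1 UMIs. They held 6 Eomes UMIs, 0 of Neurog2 and 0 of Mki67. The other 208 cells held 3910 Neurog2 UMIs. Without these 3 cells and the microglia cell, 135 genes were at least 2-fold higher than in the other cortex cells and 686 at least 2-fold lower, and 29.3% of thinned cells held a Mki67 UMI.

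Among Eomes cells, those with a Mki67 UMI were set against those without, leaving out the 4 cells just described (62 and 143 thinned cells). All 23 genes of G2 and mitosis at 50 CPM or more, Mki67 aside, were higher with Mki67. Of 21 S phase genes 9 were higher and 12 lower: Rrm2 was at 726 against 364 CPM (2-fold, 1.57 to 2.53), and Mcm6 at 156 against 312 (0.499, 0.322 to 0.75). Neurog2 was lower with Mki67 (1930 against 2640 CPM, ratio 0.73, 0.647 to 0.823), as was Hes5 (86 against 214, ratio 0.401, 0.22 to 0.687). Hes6 was higher (1460 against 1060, ratio 1.38, 1.18 to 1.61), as was Neurod2 (301 against 189, ratio 1.59, 1.11 to 2.27). Dll1 had a ratio of 1.08 with an interval from 0.769 to 1.49. With the 4 cells kept, the ratio was 0.746 for Neurog2, 0.479 for Hes5 and 1.41 for Hes6.

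Cells with a Neurog1 UMI (109) had higher levels than those without (96) of Neurog2 (2800 against 2010 CPM, ratio 1.39, 1.25 to 1.55), Gadd45g (1640 against 1120, ratio 1.47, 1.27 to 1.69), Sox4 (4820 against 3330, ratio 1.45, 1.33 to 1.57) and Tfap2c (162 against 86.8, ratio 1.87, 1.14 to 3.14). Lower with Neurog1 were Mki67 (135 against 222 CPM, ratio 0.606, 0.403 to 0.903), Neurod1 (18.3 against 55.6, ratio 0.33, 0.106 to 0.889) and 17 of 19 G2 and mitosis genes at 50 CPM or more, 4 of them with an interval that left out 1. Of 22 S phase genes, 15 were also lower, 4 of them with an interval that left out 1, and 6 were higher. Eomes itself was at 856 and 847 CPM (ratio 1.01, 0.848 to 1.2), and the ratio of Sox2 was 0.977 (0.703 to 1.36). With those 4 cells kept, Reln had 28 UMIs in thinned cells without Neurog1 and 1 in cells with it. A split at a Dcx level of 1.5 left 7 of 209 thinned cells above it, and is not described further.

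A principal component analysis of the 211 cells gave a first component led by genes of G2 and mitosis. This component held 5.81% of the variance and ran from Vim, Ckb and Cited2 to Top2a, Mki67 and Cdca8. The second held 4.1% and ran from Dcx, Sox11, Elavl2 and Elavl3 to Mif, Npm1, Mcm3 and Mcm6. Across cells, scores correlated with log UMIs at Pearson r = 0.24 for the first, 0.41 for the second and -0.22 for the third, given as a description since all cells share 1 library.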

How the data were processed

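Counts of UMIs per gene and barcode were deposited by the authors, made with Cell Ranger (version 3.0.2 in the file header, 3.0.0 in the submitters' processing notes) on mm10/GRCm38 and not normalized. Each cell of the 4 libraries, 1 per region, was filtered and classed by the limits given in the report. The members and gene lists were chosen with earlier results of these data known. No doublets were removed for the main values, and 25 of 211 Eomes cells were among the 202 kept cortex cells with the highest doublet scores (simulated doublets, 60 nearest neighbours, a rate of 0.8% per 1000 barcodes).

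UMIs were summed per class and divided by the class total (CPM). Intervals at 95% were exact: Poisson for CPM, conditional binomial for ratios and Clopper-Pearson for shares. For shares, cells were thinned to 3000 UMIs, which left out 2 Eomes cells. A share of 0 was given an upper limit of 3 counts. Named genes were those of the lists, shown by examples, plus the 12 other genes with the highest lower bound and the 8 with the lowest upper bound at 50 CPM or more, and the 12 with the largest ratio above both classes. Some examples from the lists, and the cells with Cajal-Retzius markers, were picked after their values were seen. Gene positions came from GENCODE (GRCm38), matched by identifier. Overlapping genes were not separated. Some listed genes are not reported here. Principal components used 1000 genes. The calculation of ratios and their intervals was checked on simulated sums with known folds. Python 3.11.15 with numpy 2.4.6, scipy 1.17.1, pandas 2.3.3 and scikit-learn 1.9.0 was used.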

Additional observations from a re-analysis of the deposited data

Results flagged for a closer look

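Cells that met the same limits also occurred outside the cortex library, in data that entered no comparison of the report. The CGE library held 24 such cells among 3248 kept cells (0.739%, 0.474 to 1.1), the LGE library 4 among 4810 (0.0832%, 0.0227 to 0.213) and the MGE library 0 among 4852. Their markers are given under the other observations.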

How the results depend on the processing

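No paired analysis was possible because each region had 1 library, and no replicate could be left out for the same reason. The share of Eomes cells was 5.81% of kept cortex cells. It was 4.51% with 3 or more Eomes UMIs, 8.61% with 1 or more, 4.18% with 0 Neurod6 UMIs, 4.07% with Nes at most 1.0, and 6.93% when cells were thinned before the rule. The number of genes 2-fold higher in members, 126, became 50 with a filter at 50 CPM, 1168 with no filter and 209 with thinned cells. The number of genes 2-fold lower in members, 637, became 132 and 7843 with those filters, and 422 with 1 or more Eomes UMIs. The share with a Mki67 UMI ran from 25.9% without the highest doublet scores to 32.5% with 1 or more Eomes UMIs, inside the interval of the 30.1% reported. With 1 or more Eomes UMIs, genes below the other cortex cells turned to ratios above 1: Ednrb 1.06, C1qa 1.25, C1qc 1.21, Csf1r 1.42, Cx3cr1 1.49, Fcer1g 1.87 and Apoe 1.68. With thinned cells, so did Neurod1 (1.18), Slc17a6 (1.43), Nrp2 (1.06), Robo1 (1.3) and Nrn1 (1.18), and the cause was not tested. The ratios of Neurog2 ran from 4.79 to 6.44, of Gadd45g from 5.65 to 7.88 and of Dll1 from 5.08 to 6.78 over all alternatives. Leaving out barcodes shared with another library and cells with Cajal-Retzius or microglia markers were alternatives added after seeing the data. Counting error is the only error covered, so a difference between embryos cannot be told apart from one between cells.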

Other observations

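Eomes chose both these cells and the cortical Eomes cells, so its level is given as a description only. The 24 cells of the CGE library that met the cortical limits shared Neurog2 and Insm1 with the cortical Eomes cells. They had lower Neurog1, Gadd45g and Dll1 and different levels of regional genes. Summed over the 24 CGE cells, Eomes was at 721 CPM (616 to 838) against 775 in the cortical Eomes cells. Neurog2 was at 1670 (1510 to 1850) against 2280 and Insm1 at 546 (455 to 649) against 541. Neurog1 was at 98.1 CPM (62.2 to 147) against 278, with UMIs in 10 of the 24 cells. Gadd45g was at 452 CPM (370 to 547) against 1390, and Dll1 at 38.4 (17.6 to 72.9) against 269. Emx1, a factor of the dorsal cortex, was at 8.53 CPM (1.03 to 30.8) against 293. Nr2f2 and Nr2f1, which are high in caudal and ventral forebrain, were at 665 CPM (565 to 778) against 12.8, and at 2020 CPM (1840 to 2210) against 254. Of the 24 cells, 5 held at least 2 GABAergic genes, 21 held Neurog2 and 10 held Tbr1. The 4 LGE cells held 67 Neurog2 UMIs and 0 of Emx1. Values come from separate libraries with no replicates, and the intervals cover counting error only.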
